A study of Mus musculus with 27 samples.

Results

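Single myofibers from AFS-treated Smn1 knockout muscle were compared with each other. They are the 7 arrays, of 27 in the series, whose genotype label is Smn1deltaSKM+AFS, and no measured value entered their choice. By the labels fibers 1 to 4 came from mouse 1 and fibers 5 to 7 from mouse 2; the study's results text counts the fibers and mice of this group otherwise, and the labels, which its methods match, were followed. Every fiber was taken from the tibialis anterior, a leg muscle, of a male mouse labelled as 3 months old. All 7 carried the Smn1deltaSKM deletion, in which HSA-Cre, a recombinase driven by the skeletal muscle actin promoter, removes the floxed part of Smn (Smn F7/F7) in muscle fibers and not in the other cells of the mouse. The treated mice received amniotic fluid stem (AFS) cells through the tail vein, cells that had been expanded in culture and sorted for GFP and c-kit. By the methods the injection was given at 3 months and fibers were isolated 1 month later, whereas the labels give 3 months as the age. Fibers were freed by collagenase and picked one by one under a microscope, and no source used here says which of them had taken up donor cells. The other groups served only to set the spread between fibers beside that of other mice: 12 untreated Smn1deltaSKM fibers from 3 mice and 8 Wt fibers from 2 mice, the control littermates without the muscle deletion and without AFS cells. The question is how far single fibers of the same mouse differ, and in which genes.

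A myofiber is a single giant cell with many nuclei, and fibers of one muscle are not alike. Mouse limb fibers are typed by their myosin heavy chain, the motor of contraction: slow fibers use Myh7, and fast fibers use Myh2 (type IIa), Myh1 (type IIx) or Myh4 (type IIb). Type IIb fibers contract fastest and burn mainly glycogen, while type IIa and IIx fibers hold more mitochondria, more myoglobin and more lipid droplets. Mixed forms are common. The mouse tibialis anterior is a fast muscle in which type IIb and IIx fibers prevail. Proteins beyond myosin follow the fiber type too, among them troponins, light chains and proteins of the Z-disc that respond to load.

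Levels are given as the log2 signal of a probe minus the 75th percentile of the log2 signal on the same array, so that 1 unit is a 2-fold difference in signal and 0 is the brightness of the 75th percentile. Levels of different probes do not rank RNA amounts, since probes differ in brightness for reasons other than RNA amount. Ranks of brightness and sums over marker lists below thus describe signal, and bright probes weigh most in the sums. On each of the 7 arrays between 25868 and 30478 probes had values, with a median of 27412, and 0 spots were saturated. Fibers 2 and 3 were scanned on day 1 and the other 5 on day 2, so that mouse 1 was split over both days and mouse 2 was not. Fibers were therefore compared within 3 sets: fibers 2 and 3 of mouse 1, fibers 1 and 4 of mouse 1, and fibers 5, 6 and 7 of mouse 2. The standard deviation (SD) between fibers within these sets, with 4 degrees of freedom, is called the fiber SD below. Fibers 2 and 3 lay on slide 1, fiber 4 on slide 2, which also held another group, and fibers 1, 5, 6 and 7 on slide 3. Fibers 1 and 4 thus differ in slide too, and for that pair slide and fiber cannot be told apart. A probe needed values on at least 6 of the 7 arrays, and 17344 genes were tested, of which 16599 are placed on an autosome. No arrays held the same values: over the genes tested the highest correlation of a pair was 0.983, between fibers 5 and 7.

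All 10 genes that define skeletal muscle in the marker list, from Ckm to Ttn, were above background in every fiber. The targeted gene itself, Smn1, is measured by a pair of probes, on mouse build mm9 at chr13:100898171-100898230 and chr13:100907539-100907598. The first probe lay at 2.43, 2.74, 3.88, 2.96, 2.58, 2.81 and 2.36 in fibers 1 to 7. The second lay at 0.10, -0.54, -1.04, 0.13, 0.39, 1.32 and 0.75. Fiber 3 was the highest fiber by the first probe and the lowest by the second, so the probes put the fibers in different orders. The fiber SD was 0.47 and 0.38, and that of the first was 0.28 without fiber 2 or fiber 3. Where these probes lie relative to the deleted part was not determined here, so neither checks the deletion. Among the 6 tested genes of the SMN complex, which assembles spliceosomal particles, the median fiber SD was 0.407. The largest was that of Gemin5, the RNA-binding subunit, at -0.21, 0.14, 2.04, -0.09, -0.32, 0.50 and 0.08 in fibers 1 to 7, where fiber 3 stood above the others.

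The spread between fibers was small for most genes and wide for few. The median fiber SD of the autosomal genes was 0.287, and 403 of 16599 genes, or 2.43%, had a fiber SD of at least 1. When each variance was compared with the trend of variance on signal over all genes (limma), 0 genes passed an adjusted p under 0.05, a share of 0%, with 0.728 as the lowest adjusted p. Before adjustment, p was under 0.05 for 973 genes (5.86%). The genes of lowest p are thus given below as values and not as calls, as are the genes named through lists or brightness. The technical error of the array itself was lower. Over 172 probes printed 10 times on each array, the median SD among the 10 spots was 0.118 and that between fibers 0.341, and 159 of these probes varied more between fibers than between spots. Tested against this spot error instead of against other genes, 11960 of the autosomal genes (72.1%) passed an adjusted p under 0.05 (limma). That error leaves out the amplification of 18 cycles, which each fiber went through once, so amplification and the fiber cannot be told apart. Where a gene had a second probe, its deviations correlated with those of the first at a median r of 0.578 over 3068 genes and of 0.959 over the 61 genes whose first probe had a fiber SD of at least 1.

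**Figure D1:**
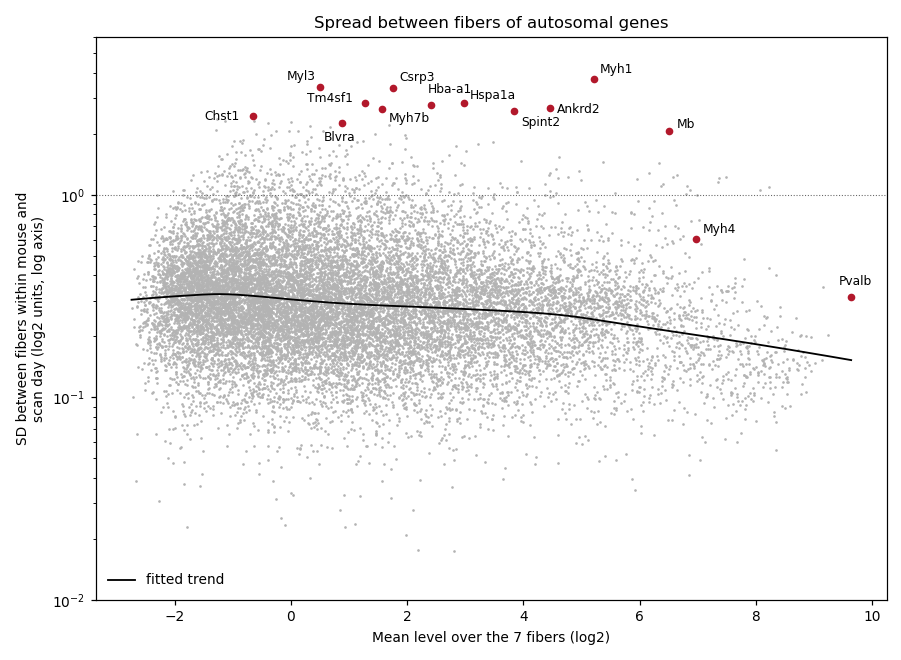
Fiber SD of each autosomal gene (log2 units, log axis) against its mean level over the 7 fibers (log2), with the fitted trend as a line and the fiber SD of 1 as a dotted line. The 12 genes of lowest p lie above the dotted line, with Myh1 the highest, and most genes lie near the trend.

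Myh1, the type IIx myosin, had the lowest p of all autosomal genes. Its probe (mm9 chr11:67038002-67038061) lay at 7.81, 3.65, 7.40, 3.28, 6.83, -0.27 and 7.75 in fibers 1 to 7. Fibers 1, 3, 5 and 7 thus lay between 6.83 and 7.81, fibers 2 and 4 between 3.28 and 3.65, and fiber 6 at -0.27. Each of the 3 sets held at least 1 of the high fibers and 1 of the lower ones, so neither the mouse nor the scan day separated them. The fiber SD of 3.74 had an unadjusted p of 6.73e-05 and an adjusted p of 0.728 (limma), and without fiber 6 it was 2.43. Myh4, the type IIb myosin encoded beside it, lay at 6.01, 7.49, 7.22, 7.47, 7.05, 7.18 and 6.39, with a fiber SD of 0.60, which was 0.36 without fiber 1 or without fiber 4. For its signal this spread was not small, with an unadjusted p of 0.0309 and an adjusted p of 0.835 (limma). All 7 fibers thus carried a Myh4 signal, and fibers 1 and 7, high for Myh1, were the lowest pair for Myh4.

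The remaining myosins split into a wide-ranging one and several that were low or absent. Myh7b, a slow-type myosin of heart and muscle, lay at 3.48, 0.16, 3.70, -0.84, 2.10, -1.27 and 3.57, highest in fibers 1, 3, 5 and 7 as Myh1 was. Myh2, the type IIa myosin, was above background in fiber 1 (-0.22) and fiber 7 (-2.33) and in none of the other fibers. Myh7, the slow myosin, stayed between -1.20 and 0.08 in all 7 fibers, with a fiber SD of 0.25. Myh6, its neighbour expressed in the atria, stayed between -1.06 and 0.36. Myh3, the embryonic myosin, was above background by both of its probes in fiber 5 (-1.83 and -0.60) and in no other fiber, and Myh13, the myosin of eye muscles, in none. Myh8, the perinatal myosin, gave a split answer: 2 of its 4 probes lay between 7.34 and 7.98 in all fibers, and the other 2 were above background in none.

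**Figure D2:**
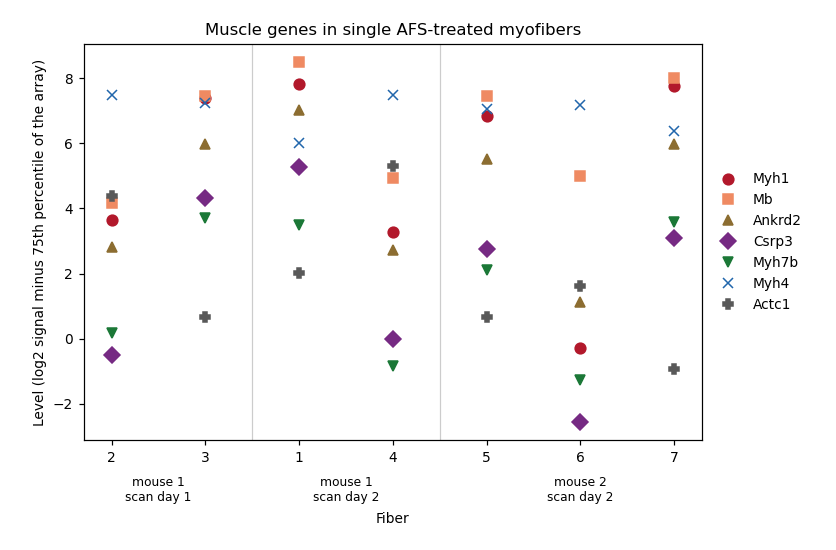
Levels (log2 signal minus the 75th percentile of the array) of 7 muscle genes in each AFS-treated fiber, with fibers grouped by mouse and scan day; each point is 1 fiber. Myh1, Mb, Ankrd2, Csrp3 and Myh7b are high in fibers 1, 3, 5 and 7, Myh4 stays between 6.01 and 7.49, and Actc1 is highest in fibers 2 and 4.

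The promoters of Myh1 and Myh4 are shown because these fast myosin genes lie close together on chromosome 11 and their fiber SDs were 3.74 and 0.60. They are the 250 bases before the start of each gene in RefSeq (build GRCm38.p6, plus strand), at chr11:67199852-67200101 for Myh1 and chr11:67237562-67237811 for Myh4. Capitals mark the runs of at least 10 bases that both windows hold in the same order, 4 runs with 55 bases in all.
Myh1: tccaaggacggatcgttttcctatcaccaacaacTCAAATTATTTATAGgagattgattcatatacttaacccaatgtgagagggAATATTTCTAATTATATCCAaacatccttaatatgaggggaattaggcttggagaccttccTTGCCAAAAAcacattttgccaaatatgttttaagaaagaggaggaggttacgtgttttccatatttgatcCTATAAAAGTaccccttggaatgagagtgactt
Myh4: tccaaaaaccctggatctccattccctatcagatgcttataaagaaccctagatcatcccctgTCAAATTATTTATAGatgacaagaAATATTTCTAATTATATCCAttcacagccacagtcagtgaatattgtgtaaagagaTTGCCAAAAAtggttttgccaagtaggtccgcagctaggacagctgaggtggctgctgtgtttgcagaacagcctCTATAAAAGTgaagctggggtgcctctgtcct
The longest shared run, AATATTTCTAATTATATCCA, has 20 bases, and of 32851 promoter windows searched on both strands 3 hold it (0.00913%), those of Myh1, Myh2 and Myh4. The windows of these genes, with a wider and a narrower spread between fibers, thus share these letters, which is a description of the windows and says nothing of what binds there.

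The 2 Myh8 probes that gave signal are shown because the fibers carried them at high and even levels while the other pair stayed dark. They are the probe sequences of the array design, on mm9 at chr11:67093475-67093534 and chr11:67121925-67121984.
Myh8, first probe: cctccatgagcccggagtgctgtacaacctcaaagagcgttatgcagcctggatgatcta
Myh8, second probe: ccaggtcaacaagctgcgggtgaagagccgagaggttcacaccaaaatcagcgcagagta
The first lay at 7.98, 7.66, 7.76, 7.66, 7.45, 7.34 and 7.73 in fibers 1 to 7 and the second at 7.84, 7.62, 7.56, 7.77, 7.42, 7.46 and 7.47. Their fiber SDs were 0.18 and 0.04, below the median of 0.287, which takes in dimmer genes with a larger fitted spread. Laid against the probes of Myh1, Myh2 and Myh4 without gaps, they matched at no more than 24 of 60 bases. The 2 Myh8 probes matched each other at 21 of 60, so a low match between probes does not tell genes apart. Their match to the whole transcripts of the other myosins was not examined, so signal from those transcripts was not tested.

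Of the 7 tested slow fiber genes 3 had an r of at least 0.8 with Myh1 and 1 an r of -0.8 or lower, and of the 20 thin filament and Z-disc genes with values in every fiber 4 and 1 did. Over all autosomal genes these shares were 4.65% and 4.94%. Csrp3, the muscle LIM protein of the Z-disc, lay at 5.27, -0.52, 4.33, -0.02, 2.75, -2.56 and 3.08 in fibers 1 to 7, with a fiber SD of 3.38 (unadjusted p = 0.000178, limma). Ankrd2, a stretch-responsive protein of the I-band, lay at 7.02, 2.82, 5.98, 2.73, 5.52, 1.12 and 5.96, and both were lowest in fiber 6. Deviations from the set means correlated with those of Myh1 at r = 0.966 for Csrp3 and 0.981 for Ankrd2 over the 7 fibers, which is a description of fibers that share an array run and has no p. Actn2, an alpha-actinin of the Z-disc, lay at 4.80, 2.47, 4.37, 3.04, 4.29, 3.46 and 4.83, and Tpm3, the slow tropomyosin, at 3.90, 3.47, 3.84, 2.82, 3.45, 2.03 and 3.71. Both were higher in fiber 1 than in fiber 4 and higher in fibers 5 and 7 than in fiber 6. Lmod2, which lengthens thin filaments, had no value in fiber 6 and lay at 2.05, -0.41, 1.04, -0.38 and 1.15 in fibers 1 to 5 and at 1.92 in fiber 7.

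Not every slow or thin filament gene followed that order. Myl3, the slow essential light chain, lay at 0.11, -1.27, 4.98, -1.40, -0.92, -2.42 and 4.47, so that fibers 3 and 7 stood above the other 5, including fiber 1. Its fiber SD was 3.42 (unadjusted p = 0.000203, limma). Actc1, the cardiac actin that developing and regenerating muscle also uses, ran the other way, at 2.00, 4.38, 0.68, 5.29, 0.66, 1.61 and -0.93, highest in fibers 2 and 4. Tnnc1, the troponin C of slow fibers, ran against Myh1 with r = -0.94 and a fiber SD of 0.27, at 2.69, 3.44, 2.95, 3.05, 2.39, 2.76 and 2.31. The troponins Tnni1 and Tnnt1 of slow fibers stayed within 1 log2 unit over all 7 fibers, at -0.80 to 0.07 and -1.04 to -0.59. Of the 7 tested slow fiber genes 2 had a fiber SD of at least 1, and of the 21 tested thin filament and Z-disc genes 5 did, against 2.43% of all autosomal genes. In every list 0 genes passed the adjusted p.

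The oxidative genes spread less than myoglobin, and many had its order of fibers. Mb, myoglobin, which stores oxygen, lay at 8.50, 4.16, 7.46, 4.93, 7.47, 4.98 and 8.00 in fibers 1 to 7 with a fiber SD of 2.06 (unadjusted p = 0.000401, limma). Fibers 1, 3, 5 and 7 lay between 7.46 and 8.50, and fibers 2, 4 and 6 between 4.16 and 4.98, without overlap. Of the 38 tested genes of oxidative metabolism Mb alone had a fiber SD of at least 1, against 2.43% of all autosomal genes, and the median fiber SD was 0.425. Of the 38, 15, Mb included, had an r of at least 0.8 with Myh1 and 0 an r of -0.8 or lower. Over all autosomal genes these shares were 4.65% and 4.94%. Acadvl, an enzyme of long-chain fatty acid oxidation, lay at 6.45, 4.25, 5.04, 4.57, 5.57, 4.97 and 6.10. Hadhb, a subunit of the trifunctional protein of the same pathway, lay at 4.54, 3.62, 4.67, 3.49, 3.96, 3.51 and 4.36. Sdha, a subunit of complex II, was highest in fiber 3, at 3.98, 3.12, 5.52, 3.13, 4.42, 4.18 and 4.92.

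Genes of lipid droplets and fuel choice had wider spreads. Of 18 tested, 5 had a fiber SD of at least 1, the median was 0.619, and 7 had an r of at least 0.8 with Myh1, where over all genes 2.43% and 4.65% did. Lpl, the lipase that takes up circulating fat, lay at 2.25, -0.63, 2.66, 0.28, 2.44, 0.81 and 4.11. Plin5, a droplet coat protein that faces mitochondria, lay at 2.47, -1.38, 1.13, -0.25, 0.76, -1.17 and 1.85, and Dgat2, which makes triglyceride, at 1.84, 0.05, 1.07, 0.10, 0.55, -1.38 and 1.86. These 3 were higher in fiber 3 than in fiber 2, in fiber 1 than in fiber 4, and in fibers 5 and 7 than in fiber 6. Lpl and Plin5 were lowest in fiber 2 and Dgat2 in fiber 6. Pdk4, the kinase that turns glucose oxidation down, lay at 6.18, 4.08, 5.72, 4.79, 4.77, 4.01 and 4.97. Plin2 and Dgat1 had another pattern, with fiber 3 above all others: Plin2 lay at -1.05, -2.03, 2.24, -0.92, -2.88, -2.05 and -2.01 and Dgat1 at -0.53, -1.25, 1.68, -0.69, -0.30, -0.85 and -1.33.

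Among the genes of the MitoCarta inventory of mitochondrial proteins, 863 autosomal genes were tested and 15 had a fiber SD of at least 1, which is 1.74% against 2.43% of all genes. Their median fiber SD was 0.334. Of 798 with values in every fiber 63 had an r of at least 0.8 with Myh1 and 16 an r of -0.8 or lower, against 4.65% and 4.94% of all autosomal genes. Cbr2, a carbonyl reductase, had the widest spread, with no value in fiber 1 and 1.51, -2.75, 2.61, -1.80, 0.72 and -2.66 in fibers 2 to 7. Aldh2, the mitochondrial aldehyde dehydrogenase, lay at 2.61, 0.46, 3.60, 0.78, 1.45, 0.74 and 2.49, and Idh2, an isocitrate dehydrogenase that makes NADPH, at 4.58, 1.80, 3.16, 2.27, 3.11, 3.02 and 3.97. Idh2 and Aldh2 were both higher in fiber 1 than in fiber 4 and in fiber 7 than in fiber 6. Pcca, a subunit of propionyl-CoA carboxylase, stood out in fiber 3, at 1.26, 0.49, 3.87, 0.70, 1.33, 1.12 and 1.43. These 4 genes had 3 different orders: Cbr2 was highest in fibers 2 and 4, Pcca in fiber 3 alone, and Idh2 and Aldh2 in fibers 1, 3 and 7.

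The RNA signals of fast fiber and glycolysis genes had median spreads below that of all autosomal genes. None of the 12 tested fast fiber genes and none of the 20 tested glycolysis and glycogen genes had a fiber SD of at least 1, against 2.43% of all autosomal genes. The medians were 0.253 and 0.202, against 0.287. In the trend fitted over all genes, fiber SD falls with signal. It was 0.317 at the mean level of Chst1 (-0.65) and 0.213 at that of Mb (6.50). Many genes of these lists are bright, so the medians do not set them apart from other genes of like signal. Gbe1, Hk2 and Gys1 of the second list spread more, with fiber SDs of 0.84, 0.65 and 0.65. Small deviations ran against Myh1: 5 of the 12 fast fiber genes had an r of -0.8 or lower and 0 an r of at least 0.8, against 4.94% and 4.65% of all genes. Of the 20 glycolysis and glycogen genes 5 and 0 did. Actn3, the alpha-actinin of fast fibers, lay at 5.97, 7.41, 7.12, 7.17, 6.76, 7.09 and 6.42. Myoz1, a Z-disc protein of fast fibers, lay at 6.76, 7.17, 6.68, 7.15, 6.90, 7.18 and 6.91, and Casq1, the calcium store protein of fast fibers, at 5.04, 6.12, 5.76, 5.93, 5.31, 5.79 and 5.39. For Actn3 and Casq1 fiber 1 was the lowest fiber and fiber 2 the highest. Among glycogen genes, the X-linked Phka1, a regulatory subunit of phosphorylase kinase, lay at 4.25, 4.81, 4.19, 5.22, 4.70, 5.39 and 4.61, and Gbe1, the glycogen branching enzyme, at 3.55, 1.64, 3.56, 2.73, 2.61, 2.04 and 3.19, with opposite orders in fibers 1 and 4.

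The brightest probes varied little. The 100 genes with the highest mean level had a median fiber SD of 0.147, against 0.287 over all autosomal genes. Fiber SD falls with signal in the fitted trend, so this low median goes with their brightness. Of these 100 genes 1 had a fiber SD of at least 1, against 2.43% of all autosomal genes. They include 9 genes of the muscle and energy lists, namely Pvalb, Aldoa, Gapdh, Tnnt3, Tnni2, Tnnc2, Slc25a4, Atp2a1 and Acta1. Pvalb, the calcium buffer of fast fibers, gave the brightest autosomal signal and lay at 9.61, 9.98, 9.25, 9.96, 9.64, 9.68 and 9.35. Aldoa, aldolase, lay at 9.50, 9.33, 9.14, 8.97, 9.17, 9.28 and 9.26, and Gapdh at 9.54, 9.01, 8.65, 9.13, 8.79, 8.68 and 8.79. Each varied by less than 1 log2 unit from the lowest to the highest fiber. Acta1, skeletal muscle actin, lay at 8.60, 8.70, 8.51, 8.35, 8.06, 8.06 and 8.01, and Atp2a1, the calcium pump of fast fibers, at 8.45, 8.52, 8.54, 8.37, 8.12, 8.15 and 8.25, with fiber SDs of 0.11 and 0.06. The other 7 of the 10 brightest were Dennd4a, Creb5, Ubtf, Sp110, Spag7, Gm8055 and an unnamed transcript with its probe at mm9 chr17:39982194-39982253, with fiber SDs from 0.13 to 0.35. Ubtf, a factor of ribosomal RNA transcription, had a fiber SD of 0.13 by its bright probe and of 0.37 by a dim second one with no value in fiber 1. The mean of its available probes had 1.96, since in fiber 1 it rests on the bright probe alone.

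Genes outside contraction and metabolism varied in other orders. Hspa1a, the inducible heat shock chaperone, lay at 4.94, 5.31, 0.87, 2.32, 2.46, 5.51 and -0.60 in fibers 1 to 7, with a fiber SD of 2.83 (unadjusted p = 0.00031, limma). Fibers 1, 2 and 6 lay between 4.94 and 5.51 and fiber 7 at -0.60. Dnajb1, its co-chaperone, lay at 4.48, 1.59, 0.44, 1.84, 3.56, 6.31 and 2.86, also highest in fiber 6 but lower in fiber 2 than in fiber 1. Of the 18 tested heat shock genes 3 had a fiber SD of at least 1, against 2.43% of all autosomal genes. The third, Hspb7, a small heat shock protein of heart and muscle, lay at 5.73, 4.81, 4.67, 5.68, 4.26, 1.74 and 4.32, lowest in fiber 6. Spint2, a membrane-bound inhibitor of serine proteases, had no value in fiber 2 and lay at 5.45, 5.10, 1.73, 4.52, 0.66 and 5.52 in fibers 1 and 3 to 7, so that fibers 1, 3, 5 and 7 again lay above fibers 4 and 6. Outside the autosomes, the X-linked Fhl1, a LIM protein of muscle, lay at 5.90, 0.82, 4.97, 1.89, 3.38, -0.37 and 4.35 and had an r of 0.96 with Myh1.

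The immediate early genes, which are switched on within minutes by stimulation or handling, had a median fiber SD of 0.768 over 22 tested genes, against 0.287 over all autosomal genes. Of these 22, 13 had an unadjusted p under 0.05, against 5.86% of all genes, and 1 had a fiber SD of at least 1, against 2.43%. That one was Rrad, a small GTPase, at 7.46, 7.44, 7.68, 7.31, 5.12, 1.99 and 4.63: mouse 1 held an even high level and mouse 2 a lower and uneven one. Fos lay at 5.62, 2.98, 2.89, 3.48, 5.65, 5.04 and 4.87, highest in fibers 1 and 5, and Junb at 4.93, 3.88, 1.66, 4.53, 4.11, 3.08 and 3.34, lowest in fiber 3. The 4 metallothioneins, which bind zinc and copper, had a median of 0.754. Mt1 lay at 7.50, 6.98, 6.40, 6.95, 6.35, 4.37 and 6.11 and Mt2 at 8.22, 7.86, 7.38, 7.93, 6.92, 4.87 and 5.92, both lowest in fiber 6.

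Of the 15 tested denervation and atrophy genes 6 had an unadjusted p under 0.05 (limma), against 5.86% of all autosomal genes, and their median fiber SD was 0.614. A fiber SD of at least 1 was found for 1 of them, against 2.43% of all autosomal genes. It was Ankrd1, a load-responsive protein, at 6.06, 6.46, 4.79, 5.97, 4.82, 2.20 and 4.61. Trim63 and Fbxo32, ubiquitin ligases of atrophy, lay at 4.05, 5.35, 4.29, 5.06, 4.68, 2.66 and 3.71 and at 2.29, 2.20, 1.08, 2.80, 2.29, 2.15 and 1.42. Fiber 6 was the lowest for Ankrd1 and Trim63 but not for Fbxo32. None of the 11 tested genes of the neuromuscular junction and none of the 16 of calcium handling reached a fiber SD of 1, with medians of 0.43 and 0.39. Colq, the collagen tail of acetylcholinesterase, which sits at the junction, lay at 2.06, 2.48, 2.12, 2.36, 2.36, 2.75 and 2.21, and Ryr1, the calcium release channel, at 4.56, 5.09, 6.16, 5.19, 5.45, 5.47 and 5.73. Of the 7 tested regeneration genes 2 had a fiber SD of at least 1, against 2.43% of all autosomal genes. They were Actc1 and H19, an imprinted non-coding RNA, which lay at 7.79, 5.41, 5.36, 5.31, 4.59, 4.65 and 5.89. Myod1, the myogenic factor, lay at 5.02, 5.68, 4.70, 5.65, 3.72, 2.19 and 2.51, lowest in fiber 6. Of the clock genes 1 of 13 had a fiber SD of at least 1, Per1, at 2.88, 1.39, 0.48, 1.61, 1.76, -1.67 and -0.66. Counts of 0 or 1 in lists of this size are too small to set a list apart from the share of 2.43%.

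**Figure D3:**
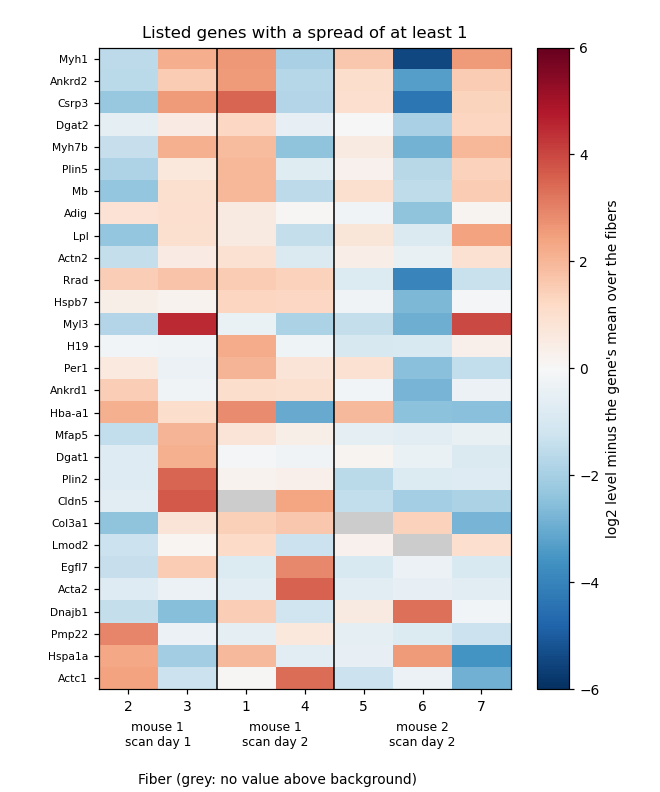
Level minus the gene's own mean over the fibers (log2, colour) for every listed autosomal gene with a fiber SD of at least 1, with fibers in columns by mouse and scan day and genes ordered by their correlation with Myh1. Several upper genes, such as Myh1, Ankrd2, Csrp3, Myh7b and Mb, are high in fibers 1, 3, 5 and 7. Others in the upper part are not, such as Rrad, which is high in fibers 1 to 4, since the correlation uses deviations from the set means. The lowest gene, Actc1, is high in fibers 2 and 4, and single fibers stand out for others, such as fiber 4 for Acta2.

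The genes most like Myh1 were ranked by the correlation of their deviations from the set means over the 7 fibers. Enah, a regulator of actin filament growth, came first at r = 0.999, and lay at 2.19, 1.06, 2.24, 0.70, 1.65, -0.91 and 1.84. It was followed by Ccdc138, AK163440, Cmss1, LOC100045096, Plaat3, Nt5c2 and Gm10925, with r from 0.99 to 0.992, of which AK163440 and Gm10925 lie on the mitochondrial chromosome. The fiber SDs of these 7 were 0.16 to 0.58, far below that of Myh1. The measure compares fibers only within their set: without removing the set means, r with Myh1 was 0.975 for Enah and 0.587 to 0.79 for the other 7. Without fiber 6 the fiber SD of Enah was 0.781 instead of 1.28. Gm10925 lay at 8.10, 7.40, 7.61, 7.71, 7.53, 6.93 and 7.67. In the untreated fibers the same r was 0.822 for Enah (n = 10 fibers in sets of more than 1), 0.928 for Csrp3, 0.903 for Ankrd2, 0.95 for Mb and Myh7b and 0.983 for Spint2. In the Wt fibers (n = 8) it was 0.714, 0.712, 0.648, 0.769, 0.405 and 0.359 in the order Enah, Csrp3, Ankrd2, Mb, Myh7b and Spint2. Fibers of a group share scan days and slides, and whether these correlations differ between groups was not tested.

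Markers of other cell types were measured in every fiber, at uneven levels. In a picked fiber with attached cells, fewer cells of a type and less RNA per cell cannot be told apart. In the marker counts and sums, above background means a value that passed all spot filters, which also leave out non-uniform and outlier spots. Cspg4, a pericyte marker, was thus left out in fiber 2 at a measured 1.62, though it counted in fiber 3 at 0.81. Of the 10 endothelial markers 6 to 9 were above background in a fiber. The 10 endothelial markers, summed as linear signal in multiples of the 75th percentile of the array, came to 40.3 in fiber 3, 32.8 in fiber 4 and 16.4 to 22.3 in the other 5. Cldn5, a tight junction protein of vessels, lay at -0.37, 3.95, 2.63, -1.22, -1.75 and -1.62 in fibers 2 to 7 and had no value in fiber 1. Tm4sf1, a membrane protein abundant in endothelium, lay at 0.10, -1.17, 4.25, 3.86, -0.75 and 1.38 in fibers 1 to 6 and had no value in fiber 7. Fibers 3 and 4 stood highest for both. Pecam1, a defining endothelial gene, was above background in fibers 2 (-2.25), 3 (2.32), 4 (1.23) and 6 (-2.11). Chst1, a keratan sulfate sulfotransferase, had the same pair on top, at -2.39, -2.87, 2.07, 2.45, -1.23, -1.05 and -1.55. Cdh5, the cadherin that defines endothelium, was above background in fibers 3, 4 and 6 and in none of fibers 1, 2, 5 and 7. Other members of the list had other orders: Kdr, a receptor for vascular growth factor, and Vwf, von Willebrand factor, were highest in fiber 2 at 3.97 and 2.35, and Emcn, endomucin, was higher in fiber 6 (-0.51) than in fiber 3 (-0.77). The part of attached vessel cells in the spread of Tm4sf1 and Chst1 was not tested.

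Blood and connective tissue genes followed other fibers. Hba-a1, the alpha globin of red cells, lay at 5.25, 4.52, 3.46, -0.62, 4.36, -0.05 and -0.11, with fibers 4, 6 and 7 below the other 4. Of the 7 erythroid markers 2 to 6 were above background in a fiber, and they summed to 57.3, 32.9, 15.4, 4.82, 27.8, 1.33 and 1.28 in fibers 1 to 7. Of the 10 fibroblast markers 3 to 8 were above background, and they summed to between 23.7 and 27.5 in fibers 1, 3 and 4, to 18.3 in fiber 6, and to 7.06, 3.66 and 2.16 in fibers 5, 2 and 7. Col3a1, a collagen of connective tissue, lay at 2.11, -1.74, 1.47 and 2.28 in fibers 1 to 4, at 2.08 and -2.13 in fibers 6 and 7, and had no value in fiber 5. Acta2, the actin of smooth muscle, lay at -1.83, -1.95, -1.52, 2.38, -1.88, -1.68 and -1.81, with fiber 4 apart from the rest, and Pmp22, a myelin protein of Schwann cells, at -1.36, 2.14, -1.18, -0.16, -1.38, -1.62 and -2.09, with fiber 2 apart. Of the satellite cell genes, Pax7 was above background in fiber 2 and in no other fiber, and Myf5 and Calcr in none. Of the macrophage and leukocyte markers 6 to 10 of 12 were above background (sums 231 to 314), of the smooth muscle and pericyte markers 5 to 8 of 9 (15.8 to 35.5, highest in fiber 4), of the tendon markers 2 to 4 of 6 (34.2 to 78.2), of the Schwann cell markers 5 or 6 of 7 (4.36 to 12.1) and of the satellite cell markers 2 to 4 of 7 (2.27 to 5.85). The adipocyte markers, 3 to 6 of 7, summed to 25.6 in fiber 6 and to 112 to 256 in the others, and Adig, a small protein of fat cells, lay at 7.52, 7.86, 8.00, 7.05, 6.78, 4.57 and 7.16, with an r of 0.91 with Myh1. Adig makes up most of the adipocyte sum, and the bright probe of Itgam, an integrin of myeloid cells, at 7.67 to 8.17, most of the macrophage and leukocyte sum, while Mrc1 was above background in no fiber and Tyrobp in fiber 6 alone. The part of these cells in the spread of the muscle genes was not tested. Summed skeletal muscle markers ranged from 1500 to 1950 in mouse 1 and from 1380 to 1450 in mouse 2.

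**Figure D4:**
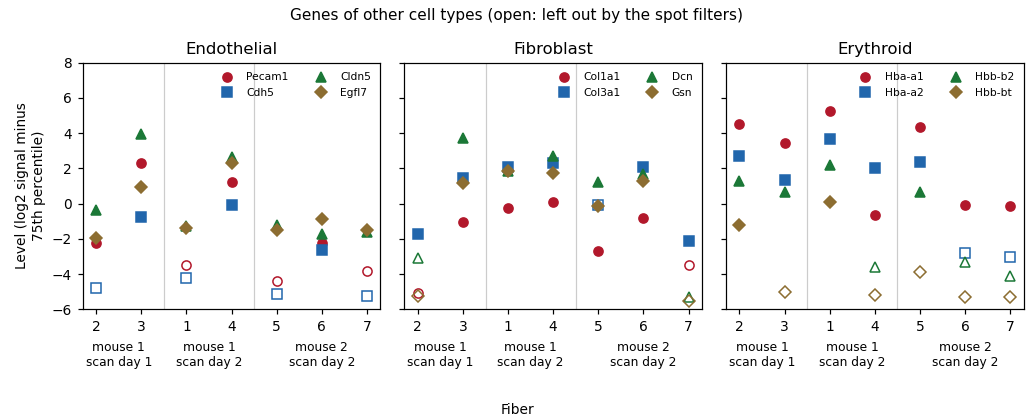
Levels (log2 signal minus the 75th percentile) of 4 endothelial, 4 fibroblast and 4 erythroid genes in each AFS-treated fiber; filled points entered the analysis and open points are measured levels that the spot filters left out, mostly as not well above background. The 4 endothelial genes plotted are highest in fibers 3 and 4, the 4 fibroblast genes lowest in fibers 2 and 7, and the 4 globin genes highest in fiber 1.

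Many genes were seen in some fibers and not in others. Of 55681 probes, 24728 were well above background in all 7 fibers and 18188 in none. Ldhb, the lactate dehydrogenase subunit of oxidative tissue, was well above background in fibers 1, 3, 5 and 7, with levels of 2.51, 0.77, -2.31 and 3.01, and in none of fibers 2, 4 and 6, which are the same fibers that were low for Mb. Dcn, the matrix protein decorin of fibroblasts, and Gsn, the actin-severing protein gelsolin, were well above background in all fibers except 2 and 7, with levels of 1.23 to 3.71 and of -0.13 to 1.85 where they were. Rgs5, a pericyte gene, was well above background in fibers 3 (2.74), 4 (2.03) and 6 (-1.56). Slc38a1, a glutamine transporter, had this only in mouse 1, at -1.62, 0.46, 2.11 and 0.13 in fibers 1 to 4, and in no fiber of mouse 2. Ntn1, netrin 1, was not well above background in fibers 2 and 3, the fibers of scan day 1, Nab2, a repressor of early growth response factors, not in fibers 6 and 7, and the predicted gene Gm5514 not in fibers 2 and 6. These 8 genes were chosen for the gap between fibers.

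Part of the wide spread came from 1 fiber at a time. A fiber was counted as apart where its gap to the nearest other fiber, divided by the whole range, was above the critical value of Dixon's test for outliers. Of the 403 genes with a fiber SD of at least 1, 127 (31.5%) had 1 fiber apart from the other 6, against 7.24% of all autosomal genes. A far fiber itself raises the fiber SD, so the larger share is partly built into the choice of these genes. The fiber apart was above the others for 103 genes and below them for 24. It was fiber 3 above for 65 genes, fiber 2 above for 30 and fiber 6 below for 13. Blvra, which turns biliverdin into bilirubin, is an example: its probes lay at 0.94, 5.76, -0.60, 0.27, -0.39, 0.27 and -0.06 and at -0.45, 4.57, -1.87, -1.26, -1.20, -0.70 and -0.84, so that both put fiber 2 far above the others. Without fiber 2 the fiber SD of the first was 0.383 instead of 2.27. Fibers 2 and 3, which account for most of these genes, are the 2 fibers of scan day 1.

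The fibers of a mouse were compared with those of the other. Pairs from the same mouse and scan day correlated at a mean r of 0.972 over the genes tested (5 pairs), pairs from the same mouse on different days at 0.926 (4 pairs), pairs of different mice on the same day at 0.962 (6 pairs) and pairs of different mice on different days at 0.919 (6 pairs). Correlations over genes are not independent replicates. The mean within a mouse exceeded that between the mice by 0.0115, with an exact one-sided permutation p of 0.171 over 35 splits of the fibers. These means differed more by scan day than by mouse. Within mouse 1, 1192 genes (6.87%) differed between fibers of day 1 and day 2 at an adjusted p under 0.05 (limma), 798 higher and 394 lower on day 1. Among those that are autosomal and have a symbol, the largest difference was that of Olfr325, an olfactory receptor. It lay at -0.44, 5.60, 5.85, -1.19, -1.97, -2.21 and -0.94 in fibers 1 to 7. Day and fiber cannot be told apart there, with 2 fibers on each day.

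**Figure D5:**
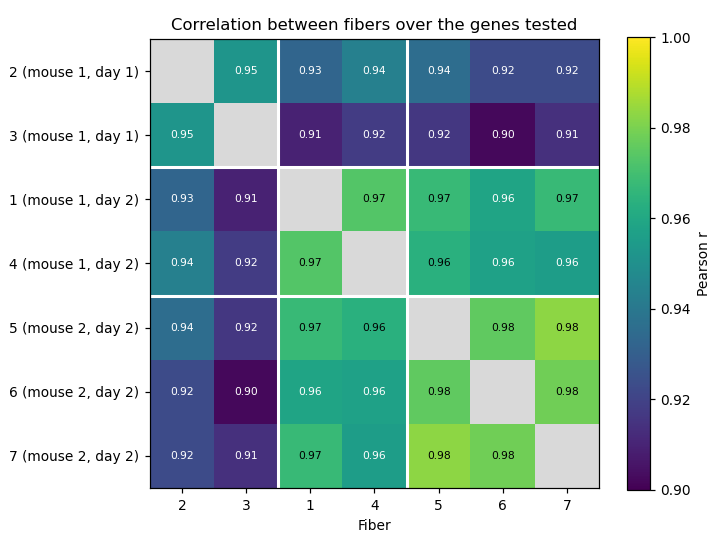
Pearson correlation over the genes tested (colour and number) for every pair of AFS-treated fibers, ordered by mouse and scan day, with white lines between the sets. The 3 fibers of mouse 2 correlate at 0.98 with each other, and fibers 2 and 3 correlate less with all other fibers than those do among themselves.

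Between the mice 0 of 17344 genes passed an adjusted p under 0.05 (limma, lowest 0.0866), a share of 0%, and 2722 (15.7%) had an unadjusted p under 0.05. Fibers are the units here, with 1 mouse on each side, so p measures the spread between fibers and not between mice. The genes of lowest p were Thbd, thrombomodulin of vessels, at 2.28, 2.74, 2.19, 3.26, -0.43, -1.36 and -0.66 in fibers 1 to 7, and Dlg5, a scaffold protein of cell polarity, at 1.19, 1.95, 0.85, 2.13, -1.37, -1.61 and -1.99. Hmox1, heme oxygenase, the enzyme upstream of Blvra, lay at 5.65, 5.67, 5.43, 6.39, 3.09, 2.79 and 3.81, and Sqstm1, the autophagy receptor p62, at 6.78, 6.57, 6.30, 6.82, 5.46, 5.29 and 5.26. The fibers of the mice did not overlap for these 4, as they did not for 18% of all genes. On scan day 2 alone, which holds fibers 1, 4, 5, 6 and 7, 53 of 18795 genes (0.282%) passed an adjusted p under 0.05 (limma, lowest 0.0467). Of these, 18 were higher and 35 lower in mouse 2. Mt3, Thbd, Dlg5, Hmox1 and Sqstm1 were among the lower ones, and Ankef1 and Herc3 among the higher ones. Some of these genes lack a value in a fiber. Cldn5 had none in fiber 1, so its difference of -4.16 sets fiber 4 alone against the fibers of mouse 2.

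The wide-ranging genes were looked up in the other groups, whose arrays took no part in choosing them. Of the 12 genes of lowest p, 10 also had an unadjusted p under 0.05 in the untreated Smn1deltaSKM fibers, where 749 of 18091 genes (4.14%) did, and 3 of the 9 that could be tested had it in the Wt fibers, where 849 of 16192 genes (5.24%) did. Myh1 ranged from 0.55 to 6.77 with a median of 3.94 over the untreated fibers (fiber SD 1.91) and from -0.66 to 3.69 with a median of 1.61 over the Wt fibers (fiber SD 1.39). Mb ranged from 3.15 to 7.33 and from 3.18 to 5.49. Myl3, wide-ranging here, stayed between -1.76 and 0.07 in the untreated fibers (fiber SD 0.56), and Blvra between -0.81 and 1.14 (fiber SD 0.34). In both groups 0 genes passed an adjusted p under 0.05 (limma), a share of 0%.

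A fiber SD of at least 1 was found for 1.65% of the genes tested in the untreated and 5.55% of those tested in the Wt fibers. Of 15999 genes tested in both, 379 had it in the AFS-treated fibers and 210 in the untreated ones, and 64 had it in both, 16.9% of the first list, against 1.31% of these genes in the untreated fibers, and 30.5% of the second, against 2.37% in the AFS-treated fibers. Of 14315 genes tested in both, 325 had it in the AFS-treated and 808 in the Wt fibers, and 45 were shared, 13.8% of the first list, against 5.64% of these genes in the Wt fibers, and 5.57% of the second, against 2.27% in the AFS-treated fibers. The fiber SDs of the genes correlated across genes at a Spearman rho of 0.437 with the untreated and of 0.072 with the Wt fibers. All Wt arrays lay on 1 slide and were scanned on a day of their own, so slide, scan day and genotype cannot be told apart there.

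The amount of spread was compared per mouse. The median SD between fibers of a mouse, over 16681 genes, was 0.413 in AFS-treated mouse 1 and 0.208 in mouse 2, 0.424, 0.29 and 0.233 in the untreated mice and 0.383 and 0.47 in the Wt mice. Mouse 1 of both knockout groups was split over scan days, and within days its median was 0.302 with AFS cells and 0.335 without. Of the 12 untreated fibers 10 lay in sets of more than 1, so the value of 0.335 leaves out fibers alone on their day. Within days both AFS-treated mice thus lay below both Wt mice, with a difference of -0.171, while they overlapped the untreated mice. The AFS-treated mice differed by -0.00512 from the untreated mice (exact two-sided permutation p = 0.9) and by -0.116 from the Wt mice (p = 0.667 by the same exact test). The within-day difference from the Wt mice had the smallest p that 2 against 2 mice can give (0.3333, exact two-sided permutation), and with 2 against 3 mice the test cannot go below 0.1. Neither design can reach 0.05.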

How the data were processed

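RNA of each single myofiber was amplified, labelled with Cy3 and hybridised to its own 1-colour Agilent mouse array. Per the file headers, the deposited intensity of each spot came from Agilent Feature Extraction 10.7.3.1, which subtracted background and detrended the signal within the array. The deposited table of intensities that the authors normalised between arrays was used as an alternative. Here log2 of the processed signal minus the 75th percentile of the array was taken over 59305 non-control spots. Spots that were not found, not well above background, non-uniform or outliers of their probe were left out, and repeated spots were averaged. Of 55681 probes 23031 had values on at least 6 of the 7 arrays, and the brightest probe stood for a gene. Gene symbols are those of the array files, updated through RefSeq for the 26425 probes whose accession matched. The number of arrays limits the precision.

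The variance between fibers of a mouse and scan day was compared with a prior fitted on the intensity trend over all genes (R 4.3.3, limma 3.58.1), with Benjamini-Hochberg adjustment. Mice were compared with limma, and the likeness and the spread per mouse by exact permutation of fibers or mice. Scripts were tested on simulated data. Figures were drawn with matplotlib 3.10.9.

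The text names Smn1, the 10 brightest autosomal genes, the 12 genes of lowest p with a symbol, the myosin heavy chains, 8 genes above background in only some fibers, the 8 genes most like Myh1, genes of lowest p between the mice, and members of 27 gene lists where these are described. Listed genes outside that rule were chosen after their values were seen. The members and lists were chosen with earlier results of these data known. Fiber numbers do not pair fibers of different mice: the correlations of their deviations were -0.111, 0.0235 and 0.105. Alternatives covered normalisation, background, the filter, the probe, the sets, the prior and each fiber left out. Scan days and slides came from the file headers.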

Additional observations from a re-analysis of the deposited data

Results flagged for a closer look

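For 35 named genes the fiber at either end was compared with the others by its gap to the nearest fiber divided by the whole range of the 7 fibers, and chance sets about 1 in 20 such groups apart. Smn1 had fiber 3 above the other fibers at 3.88, with the nearest at 2.96 and a ratio of 0.605. This holds for the probe at mm9 chr13:100898171-100898230, while fiber 3 was the lowest by the other Smn1 probe. Blvra had fiber 2 above the other fibers at 5.76, with the nearest at 0.94 and a ratio of 0.759, and its second probe put the same fiber on top at 4.57 with the others between -1.87 and -0.45.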

How the results depend on the processing

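The number of genes whose variance passed an adjusted p under 0.05 was 0 in 20 of 21 alternatives and 11960 when variance was tested against spot error. The 403 genes with a fiber SD of at least 1 became 162 with normexp background correction, 1833 with no filter on dim probes, 802 when fibers were compared within mouse without regard to scan day, and 271 to 568 when a fiber was left out. The difference between the mice kept 0 calls except on the shared scan day, with 53, and when fibers were left out in turn, with 0 to 1: 1 without fiber 1 (an unnamed transcribed region of chromosome 13, -2.91, adjusted p = 0.0268, limma) and 1 without fiber 5 (Myc, -3.89, adjusted p = 0.0135, limma), genes named after their values were seen. With the fiber number as a replicate block 0 genes were called, with 2435 at an unadjusted p under 0.05. The difference in spread between AFS-treated and untreated mice was 0.003185 by 1 minus the mean correlation, opposite in sign to the median SD. The likeness within mice kept its direction in 16 of 16 alternatives (0.001827 to 0.02797), and the spread against Wt in 16 of 16 (-0.1866 to -0.01597). Both AFS-treated mice lay below both Wt mice within scan days, with no filter on dim probes and without fiber 3, and overlapped them in the other 13. In the untreated and in the Wt fibers 0 genes passed in 7 of 7 alternatives each. The causes were not tested. Signal over background limits the genes above background in only some fibers, whose lower levels have no order.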
